A study of Arabidopsis thaliana with 4 samples.

Results

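AT3G28220 is an Arabidopsis thaliana gene whose protein carries TRAF-like (MATH) domains. It was followed through the 1 cDNA clone, RAFL09-14-L24, that represents it on a spotted array of stress-related genes, as 1 of 1182 clones. The clone was found by its name in the scanner files and by its entry in the platform's gene table, where it is the only clone under this gene name. The gene was chosen by its measured ratios between insect-fed and untreated plants, which were among the highest on the array, so those ratios and ranks are given as a description, with no test of the contrast that chose it.

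The MATH domain is a fold of beta strands that binds other proteins, named after the meprin proteases and the TRAF adaptors of animals that share it. In Arabidopsis it occurs with a BTB domain in the BPM proteins, which bring substrates to cullin-based ubiquitin ligases, and without other known domains in many further proteins. Thrips pierce single leaf cells and empty them, and plants answer wounding of this kind largely through the hormone jasmonate.

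All plants were ecotype Columbia (Col-0), grown in soil at 22 °C with 16 h of light and 8 h of dark and 21 days old. Fed plants each carried 25 adult females of the western flower thrips, starved for 3 h beforehand, inside a ventilated cylinder for 2, 5, 10 or 24 h, and the untreated plants were grown in parallel without insects. Above-ground parts were sampled. Each sample held 30 to 70 plants, and 3 to 4 experiments were pooled before RNA extraction, so each of the 4 arrays used here, 1 per time, compares 2 pools. The labels give 2 to 3 arrays for the same RNA, of which only 1 per time was available here. The fed pool was in the red dye Cy5 and the untreated pool in the green dye Cy3 on every array, without a dye swap, and a fixed dye effect of the clone cannot be told apart from feeding. In whole above-ground parts, a change in the number of cells of a type and a change in RNA per cell cannot be told apart either.

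Clones with a usable ratio numbered 718 to 857 per array, and the median intensity of usable clone spots was 895 to 1150 in Cy3 and 1325 to 2063 in Cy5. The scanner files record 1 number for the 2 h and 5 h arrays and another for the 10 h and 24 h arrays. This number was read as the slide, which the sample labels do not give. The detector gain for Cy3 was 69 throughout and that for Cy5 was 58, 65, 60 and 60 at 2, 5, 10 and 24 h. None of 11 leaf marker genes has a clone under its gene name here, so the labelled tissue could not be checked from that side.

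AT3G28220 was far brighter in fed than in untreated plants at every time, in both of its spots. At 2 h its spots read 1405 and 1431 in Cy3, over local backgrounds of 106 and 116, and 20293 and 19650 in Cy5, over backgrounds of 185 and 189. At 24 h they read 718 and 924 in Cy3 and 44703 and 41449 in Cy5. At these times the measuring circle was 100 micrometres wide, the median for good spots on all 4 arrays. Both spots were brighter in fed plants at these times, and at 24 h the Cy3 reading differed more between the spots than at 2 h.

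At 5 h and 10 h the clone looked dimmer in both dyes. Its spots read 372 and 335 in Cy3 and 11823 and 11303 in Cy5 at 5 h. At 10 h they read 231 and 260 in Cy3 and 5154 and 4983 in Cy5. On these arrays its circle was 150 micrometres wide, and the mean over pixels exceeded the median 2.34-fold and 2.43-fold in Cy5 at 5 h and 3.74-fold and 3.76-fold at 10 h, where at 2 h and 24 h it lay between 0.926 and 0.968 of the median.

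The scanner files hold a second set of intensities, which the software scaled to the total signal. Multiplied back by the scaling factor, these columns returned the same intensity as the plain columns for AT3G28220 at 2 h and 24 h, but not at 5 h and 10 h. There they held 1488 and 1662 in Cy3 at 5 h, 4-fold and 4.96-fold the plain values, and 65526 in Cy5 in both spots, which is the scanner's ceiling within the rounding of the factor. At 10 h they held 1053 and 1092 in Cy3 and 47733 and 48639 in Cy5, the latter 9.26-fold and 9.76-fold the plain values. Only 10 of 2560 spots differed between the sets at 5 h, from 5 clones, and 18 spots from 9 clones at 10 h, by more than 2 intensity units in Cy3. No source used here says why the files hold both.

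**Figure D1:**
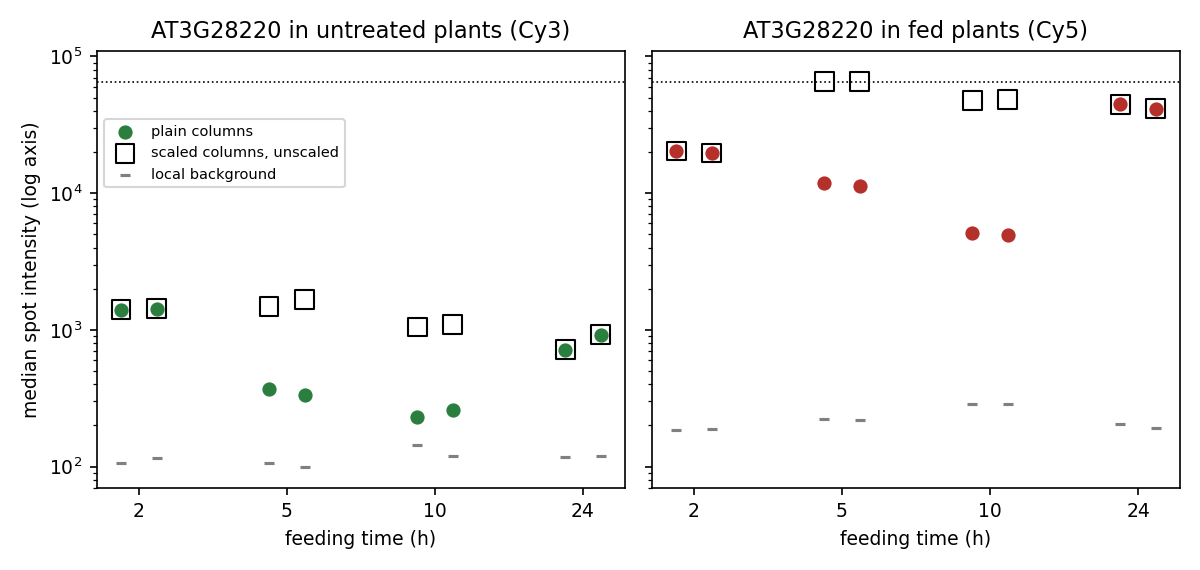
Median spot intensity of AT3G28220 on a log axis against feeding time (times evenly spaced), in untreated plants (left, Cy3) and fed plants (right, Cy5). Filled circles are the plain columns for each of the 2 spots, open squares the scaled columns multiplied back by their factor, dashes the local background and the dotted line the scanner's ceiling; circles and squares coincide at 2 h and 24 h and part at 5 h and 10 h.

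The ratio of the dyes depended less on the choice of columns than the intensities did. After subtraction of the local background, Cy5 over Cy3 at 5 h was 43.8 and 47.2 in the 2 spots from the plain columns and 47.3 and 41.8 from the scaled ones, where a ceiling in Cy5 makes the second pair lower limits. At 10 h it was 55.3 and 33.6 from the plain columns and 52.1 and 49.7 from the scaled ones. At 2 h it was 15.5 and 14.8, and at 24 h 74.0 and 51.2. The spots were closest to each other at 2 h and furthest apart at 10 h in the plain columns.

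Normalized log2 ratios of fed over untreated plants, relative to the middle of the clones on each array, were computed from the plain columns. They were 3.71 and 3.65 in the 2 spots at 2 h, 4.42 and 4.49 at 5 h, 4.34 and 3.81 at 10 h and 5.66 and 5.16 at 24 h. The averages were 3.68, 4.46, 4.07 and 5.41, with SDs between spots of 0.04, 0.05, 0.37 and 0.36, which are technical. Over all clones the median spot SD was 0.10 to 0.12, so AT3G28220 was read more tightly than most clones at 2 h and 5 h and less tightly later. At 10 h neither Cy3 spot exceeded its background by 2 background SDs (limits of 350.02 and 285.9), so the ratio there is only a bound: fed plants were at least 14.5-fold higher, with a measured ratio of 16.8-fold. The scaled columns put both Cy3 spots above that limit at 10 h. The corresponding folds were 12.8 at 2 h, 21.9 at 5 h and 42.5 at 24 h.

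Over the 4 arrays the mean was 4.40 with an SD of 0.74 (n = 4 times, moderated SE 0.30), a 21.2-fold higher level, and ranked 2 of 806 clones. The ratio at 10 h, only a bound, enters this mean at its measured value. AT3G28220 belonged to the 70 of 607 clones with values on all arrays (11.5%) that reached a 2-fold rise each time, which the choice of the gene fixes in advance.

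Clones at least 2-fold higher in fed plants made up 19.6%, 19.8%, 21.8% and 19.5% of those measured at 2, 5, 10 and 24 h, and AT3G28220 was among them each time, from which nothing is read since this contrast chose it. It ranked 4 of 708 clones at 2 h, 3 of 792 at 5 h, 10 of 726 at 10 h and 1 of 709 at 24 h. The place at 10 h comes from the measured ratio, whose Cy3 signal was not above background, and is not an exact rank; from the scaled columns, where Cy3 was above it, the rank was 7. Among clones with a gene name it ranked 3 of 217, 3 of 240, 3 of 223 and 1 of 208. In units of the SD over clones it lay 3.41, 3.43, 2.57 and 4.25 SDs above the median clone. The SD over clones was 1.61 log2 at 10 h against 1.11 to 1.31 at the other times.

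**Figure D2:**
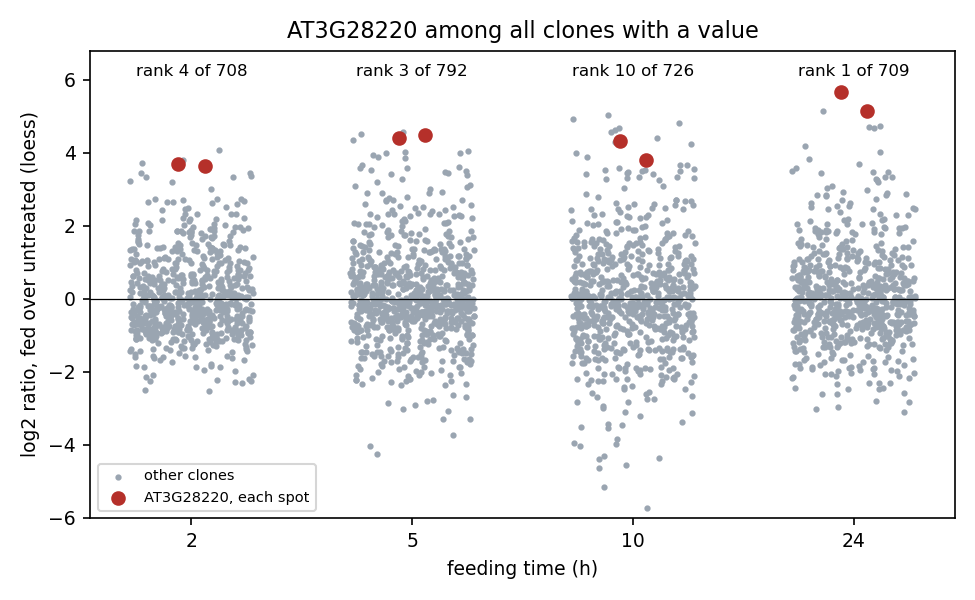
Log2 ratio of fed over untreated plants against feeding time (times evenly spaced) for clones with a value at that time (grey points, spread sideways at random) and for both spots of AT3G28220 (red). The lowest clones at 10 h, such as a clone at -6.99, lie below the end of the axis and are not drawn. The number above each time is the rank of the averaged ratio of AT3G28220; it was 1 after the longest feeding, and the 10 on the 10 h array rests on a Cy3 signal not above background.

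At 2 h the named gene next above AT3G28220 was AT5G05600 (3.72, spot SD 0.08), whose enzyme inactivates jasmonate by hydroxylation. At 5 h it was FAMT, a farnesoic acid methyltransferase gene (4.51, spot SD 0.15). AT1G54010, a GDSL lipase-like gene, took that place at 10 h (4.31, spot SD 0.14). Next below among named genes came AT1G52000, a jacalin-type lectin gene, at 2 h (3.21), 5 h (3.86) and 10 h (3.52). At 24 h AT5G05600 came next below, at 4.71, and the nearest clone of all was unnamed, at 5.15 (spot SD 0.05). At 2 h and 5 h AT3G28220 lay within 0.05 log2 of the named gene above it, less than the spot SD of that gene, and these places cannot be ordered. At 10 h the gap to AT1G54010, and to the unnamed clone between them (4.23, spot SD 0.60), was smaller than the spot SD of AT3G28220, 0.37, so that place cannot be ordered either. At 24 h the lead over the unnamed clone was smaller than the spot SD of AT3G28220.

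By its averages the order of the times was 2 h, 10 h, 5 h and 24 h from lowest to highest. The step from 2 h to 5 h, on 1 slide, was 0.78 log2. The step from 10 h to 24 h, on the other, was 1.34 log2 between measured ratios, but since the ratio at 10 h is a lower bound, neither this size nor the place of 10 h in the order is exact. Both spots at 5 h lay above both at 2 h, and both at 24 h above both at 10 h. The difference between 5 h and 10 h was 0.38 log2, close to the spot SD at 10 h, and had no settled sign. With plain background subtraction 10 h lay above 5 h (4.85 against 4.72). It also did so from the scaled columns (4.46 against 4.37) and with the mean over pixels (4.74 against 4.45), but neither settles the order. In the scaled columns Cy5 was at the scanner's ceiling in both spots at 5 h, so 4.37 is a lower limit. For the mean, 31% and 25.6% of Cy5 pixels were saturated at 5 h, against 11.7% and 4.6% at 10 h. In 14 alternatives that give all times, 24 h was highest in 14, and 2 h was lowest in 13. Without background subtraction 10 h stood lowest, at 3.58. All alternatives use the same arrays, and the one without the filter on dim clones cannot change these values, so the counts describe processing alone. The step from 10 h to 24 h ranged from 0.47 with the mean over pixels to 2.22 with scaling on alpha tubulin, and was 0.94 from the scaled columns.

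**Figure D3:**
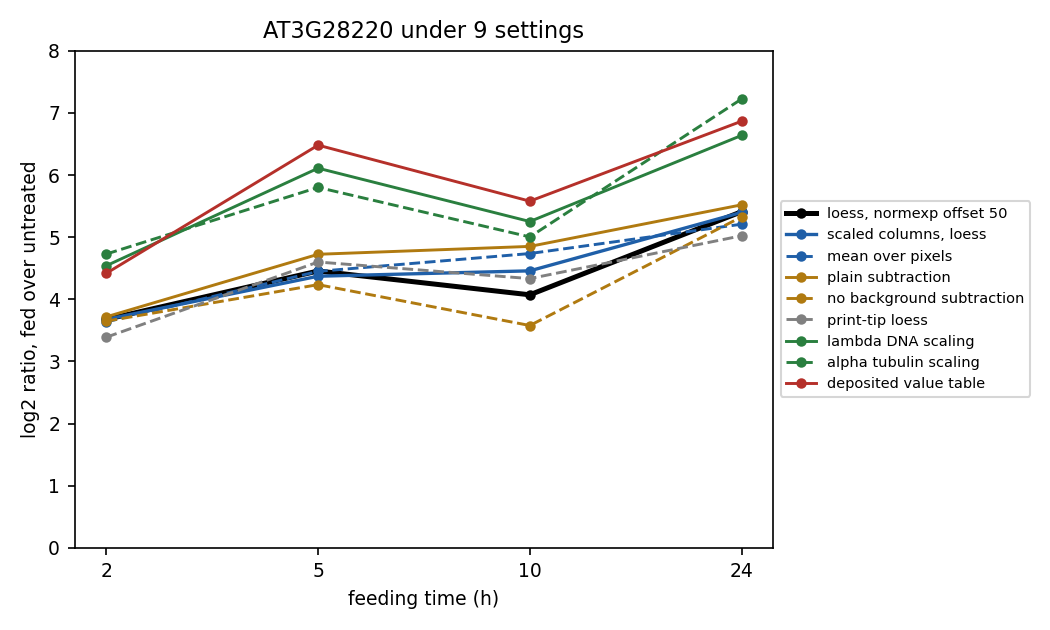
Log2 ratio of fed over untreated plants for AT3G28220 against feeding time (times evenly spaced) under 9 settings, each a line through 4 arrays. Every line has its highest point at 24 h. The 2 control scalings and the deposited value table, whose zero points differ, lie higher, and how much of this is due to the zero point was not tested. The lines disagree on whether 10 h lies above or below 5 h.

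The 10 h and 24 h arrays shared a slide, as read from the scanner files, and the gains of both dyes, which lets the channels be set side by side. From the scaled columns, the net signal of AT3G28220 in fed plants was 47899 at 10 h and 42900 at 24 h, a ratio of 0.896, close to the ratio of 0.927 for the median clone spot. In untreated plants it was 941 at 10 h and 703 at 24 h, a ratio of 0.747, while the median clone spot stood at 1.07. So in these columns the signal at 24 h was lower in untreated plants and no higher in fed plants, on 1 array each. These signals are before normalization. The net ratios of the 2 spots in these columns were 52.1 and 49.7 at 10 h and 74.1 and 51.3 at 24 h. After normalization the step from 10 h to 24 h was 0.94 log2 in these columns, and the part of normalization in it was not tested. For net signal at 24 h over 10 h, the plain columns gave 8.97 for Cy5 and 6.17 for Cy3, over circles of unequal width, and cannot be read as levels. Saturated Cy5 pixels made up 31% and 25.6% of the spots at 5 h, 11.7% and 4.6% at 10 h and 21% and 4.9% at 24 h. Most pixels of each spot were thus not saturated, and the plain medians lay under the ceiling. The mean over pixels may be read too low at each of these times, and so may the scaled Cy5 values at 5 h, which were at the ceiling. In Cy3 no pixel of the clone was saturated at any time.

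A slope on log2 of hours was fitted for all clones with limma. The gene was chosen by its high ratios and not by a time trend, but the slope rests on those same 4 ratios. It is therefore not independent of the choice. For AT3G28220 it was 0.42 ± 0.17 log2 per doubling of feeding time (moderated SE, 4 arrays, unadjusted p = 0.0446, limma adjusted p = 0.512) and did not pass the threshold of 0.05. The ratio at 10 h, only a bound, enters this slope at its measured value. No clone of 716 passed (0% called), while 67 had an unadjusted p under 0.05. With the slide as a block the slope was 0.81 ± 0.39 (limma adjusted p = 0.992, 607 clones), and without the 24 h array it was 0.19 (limma adjusted p = 0.677). Over the 20 alternatives the slope stayed above 0, between 0.19 and 0.81, and none passed, with limma adjusted p from 0.368 to 1.00.

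Likeness to AT3G28220 was measured as the root mean square distance between log2 ratios over the 4 arrays, among 607 clones with all values, of which 179 are named. All distances, also those after centring, use its measured ratio at 10 h, 4.07, which is only a bound. AT5G05600 was nearest, at 0.52 log2, with ratios of 3.72, 4.58, 4.83 and 4.71 at 2, 5, 10 and 24 h. AT1G52000 followed at 0.83, with 3.21, 3.86, 3.52 and 4.04. FAMT was at 1.27 and AT1G54010 at 1.51, and AT5G64120, a peroxidase gene, at 2.06. FAMT stood higher at 2 h and 5 h (4.07 and 4.51) than at 10 h and 24 h (2.87 and 3.22), and its Cy3 spots were below the background limit at 10 h. Counting unnamed clones, these 5 genes were 1st, 4th, 9th, 17th and 27th in distance, and 7 of the 10 nearest clones have no gene name here.

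When each gene was centred on its own mean, so that the course over time alone was compared, the nearest of 30 named genes with a mean of at least 1 was AT3G28270, at 0.23 log2. AT3G28270 belongs with the AT14A-like proteins and lies 7 annotated genes from AT3G28220 on chromosome 3 in the TAIR10.1 annotation. Its ratios were 1.73, 2.04, 1.74 and 2.84 at 2, 5, 10 and 24 h, with spot SDs of 0.01, 0.14, 0.01 and 0.01. It shared with AT3G28220 the highest value at 24 h and a value at 10 h below that at 5 h. For AT3G28220 the order of 5 h and 10 h turned with plain background subtraction. It also turned with the scaled columns and the mean over pixels, where saturation in Cy5 lowers the value at 5 h. AT1G52000 was at 0.36, the aldehyde dehydrogenase gene ALDH7B4 at 0.51, AT5G05600 at 0.52 and AT5G64120 at 0.56. Counting unnamed clones, these genes, from AT3G28270 on, were 2nd, 4th, 12th, 16th and 20th of 114 clones with a mean of at least 1. With 4 arrays per gene these distances are a description, and all genes share the arrays, the dyes and the RNA pools.

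**Figure D4:**
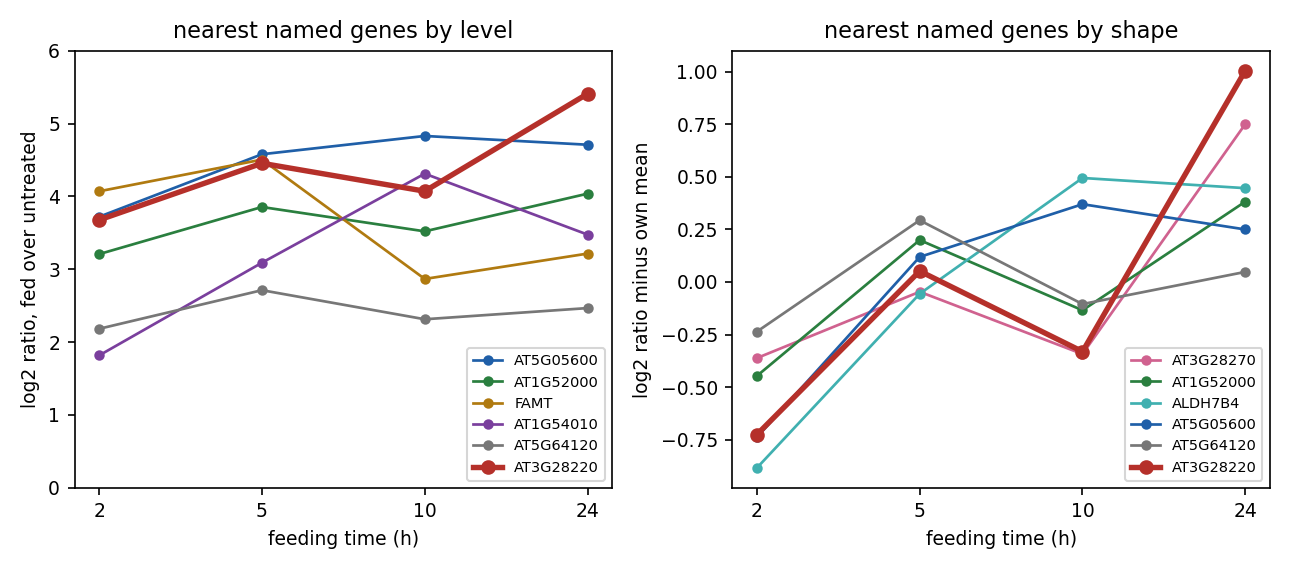
Left, log2 ratio of fed over untreated plants against feeding time (times evenly spaced) for AT3G28220 (thick red) and the 5 named genes nearest to it by level; right, the 5 nearest by course over time, with each gene's own mean subtracted. Among named genes, AT5G05600 runs closest by level and AT3G28270 closest by course.

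Of the 20 annotated genes within 10 places of AT3G28220, 2 have a named clone. AT3G28270 was higher in fed than in untreated plants by a mean of 2.09 ± 0.24 log2 (moderated SE, 4 arrays, limma adjusted p = 0.000837). Below, rose and fell with such a mean refer to fed against untreated plants over the arrays, and not to a change over time. AT3G28200, a peroxidase gene 3 places away on the other side, had no usable spot on any array. For comparison over all clones, 22.6% of 806 tested were called higher and 24.4% lower.

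The array also held ZW9, another gene for a protein with TRAF-like domains. ZW9 rose by 1.29 ± 0.27 (moderated SE, 4 arrays, limma adjusted p = 0.00880), with ratios of 0.99, 2.07, 1.53 and 0.56 at 2, 5, 10 and 24 h. ZW9 was highest at 5 h and lowest at 24 h, where AT3G28220 was highest, and the difference between the genes was not tested. None of the 5 genes named in the annotation for a MATH domain, all of the BPM type, has a clone under its name. The clones are cDNAs, and signal from close relatives of AT3G28220 would be read with its own.

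The jasmonate list, with 29 genes that make, break down or answer to the hormone, had 6 tested members with a median of 1.54 log2, against -0.04 for all tested clones. Of these 3 rose and 3 did not pass, where 22.6% of all 806 tested clones rose and 24.4% fell. Beside AT5G05600 and FAMT, the jasmonate biosynthesis gene OPCL1 rose by 1.81 ± 0.19 on 4 arrays (limma adjusted p = 0.000649). OPCL1 had its lowest ratio at 24 h (1.49), the time of the highest ratio of AT3G28220. AT2G38240, a relative of AT5G05600, stood at 1.49, 3.06, 0.19 and 0.37 at 2, 5, 10 and 24 h and did not pass (1.28 ± 0.46, limma adjusted p = 0.0585), with Cy3 above background on 0 arrays. The defensin gene PDF1.2 and the thionin gene THI2.1 did not pass, but like AT3G28220 they had their highest value at 24 h, 2.82 and 2.55; PDF1.2 had no usable value at 2 h. For AT3G28220 the value at 2 h was already 3.68, while THI2.1 stood at -0.90 then.

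The list for myrosinases and ER bodies, compartments of Brassicaceae cells that store beta-glucosidases, had 6 tested members with a median of 1.61 log2, of which 4 rose and 2 did not pass, against the same 22.6% and 24.4% of all tested clones. AT1G52000, AT1G54010, ZW9 and NAI2, a gene needed to form ER bodies, were the 4 that rose; NAI2 stood at 1.94 ± 0.24 (limma adjusted p = 0.00111). Both lists were drawn up with results of these arrays known, so neither is independent evidence of a direction.

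Of 5 root marker genes 4 have a clone. BGLU21 rose by 0.75 ± 0.24 (limma adjusted p = 0.0418, 3 arrays, with Cy3 above background on 0 of them), AT4G11190 fell by 1.01 ± 0.19 (limma adjusted p = 0.00599, 4 arrays), and PYK10 and BGLU22 did not pass. PYK10 went from -0.27 at 2 h and 0.42 at 5 h to 2.86 at 24 h. BGLU22 stood at -0.58, 0.41, 1.55 and 1.82 at the 4 times. Both were highest at 24 h, as AT3G28220 was. AT4G11190 stood at -0.92, -0.72, -1.37 and -1.02. BGLU21 and BGLU22 are closely related genes that may share signal. The part of root RNA in the result for AT3G28220 was not tested.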

How the data were processed

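Dual-colour arrays of 4 feeding times were analysed. The deposited scanner files give spot intensities on a linear scale, as medians over pixels, and the percent of saturated pixels per the file headers; channel 1 is Cy3 and channel 2 Cy5. A deposited value table holds natural log values; no source used here states their scale, centring or direction. Compared with log ratios of Cy5 over Cy3 from the scanner, its columns gave slopes of 0.988, 0.984, 0.964 and 0.962 and correlations of 0.998, 0.997, 0.993 and 0.994, with medians of 0.305, 1.20, 0.609 and 0.867, and it was read as that ratio. For AT3G28220 it followed the plain columns.

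Spots with flag 3 were kept; control spots and 18 spots under a gene symbol in place of a clone name were left out. Background was corrected with normexp (offset 50) and ratios by loess within arrays (limma 3.58.1, R 4.3.3), and the spots of a clone averaged. A clone was tested if its foreground exceeded background by 2 background SDs in a share of at least 0.5 of its spots, in either dye, on at least 2 arrays. The fits used eBayes, Benjamini-Hochberg adjustment and a threshold of 0.05. Their code was run on simulated data with the same spread for every clone, which does not show how the fits perform on these arrays. With 1 array per time, p-values rest on the spread between time points, and the number of arrays limits the precision. A level below background gives a bound: the Cy5 level over the higher of the dim signal and the lowest Cy3 signal above background, after loess and Aquantile, which is open to dye bias without swaps.

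Named are the nearest genes by level and course, rank neighbours, locus, family and list members. The gene, lists and rules were chosen with earlier results of these data known. Gene names come from the platform's table, updated by identifier to TAIR10.1 (415 of 416 probes with 1 symbol matched; 0 have several and 780 of 1196 are unnamed). The planned protein comparison was not made, and no sequence is shown.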

Additional observations from a re-analysis of the deposited data

How the results depend on the processing

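The settings from the scaled columns, with no normexp offset and with the 2 h and 24 h arrays alone were chosen after seeing the data. The mean of AT3G28220 stayed between 4.07 and 5.84 log2 over 22 alternatives. It moved by more than the SD over arrays with scaling on lambda DNA (5.63) or alpha tubulin (5.69) and with the authors' value table (5.84), whose zero points differ by construction; leaving out 1 array gave 4.07 to 4.65. The trend did not pass in any of 20 alternatives, with slopes of 0.19 to 0.48 on leaving out 1 array. Single times moved by more than the spot SD as follows. Without background subtraction the ratio was 4.24 at 5 h and 3.58 at 10 h, and the ranks at 2, 5 and 10 h were 3, 4 and 13. Plain subtraction gave 4.72 and 4.85, with ranks 5, 2 and 7. Normexp with no offset gave 4.69 and 4.56, with ranks 5, 2 and 9. Median centring gave 3.89 at 2 h, with ranks 3, 4 and 11. Print-tip loess gave 3.39, 4.60 and 5.02 at 2, 5 and 24 h, with ranks of 2 at 5 h, 6 at 10 h and 3 at 24 h. Lambda DNA scaling gave 4.54, 6.11, 5.25 and 6.64 over the 4 times, and alpha tubulin scaling 4.73, 5.80, 5.00 and 7.22, both with ranks 3, 4 and 11 at 2, 5 and 10 h. The deposited value table gave 4.42, 6.48, 5.58 and 6.87, with ranks of 2 at 5 h and 8 at 10 h. The mean over pixels gave 4.74 and rank 6 at 10 h, and rank 1 at 5 h. Keeping low-quality spots gave 3.83 at 2 h and 4.55 at 5 h. Either spot alone ranked 8 and 12 at 10 h. The scaled columns gave 4.37 at 5 h, a lower limit since Cy5 was at the ceiling, and 4.46 with rank 7 at 10 h. Beyond the zero points the cause was not tested. Removing the filter on dim clones changed no value. No paired analysis was possible because no time has a second array with a replicate number to pair across times; each ratio already sets a fed against an untreated pool, and the slide was used as a block instead (mean 4.40, slope 0.81). Depth here is signal over background, which limits the Cy3 value of AT3G28220 at 10 h in the plain columns.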

Other observations

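The clones whose spots hold differing intensities in the plain and the scaled columns were bright ones. None differed at 2 h. There were 10, 18 and 6 such spots at 5, 10 and 24 h, and the lowest Cy5 value in the scaled columns among them was 54142, 41208 and 65571 in that order. The Cy5 value in the scaled columns was at the scanner's ceiling, within the rounding of the factor, in 8, 8 and 6 of these spots. At 5 h 12 other spots were as bright in Cy5 as the dimmest of the 10 and held equal values in both sets. The net ratio of Cy5 over Cy3 differed between the sets by a median of 0.51, 0.60 and 0.70 log2 over these spots at 5, 10 and 24 h. The deposited value table lay closer to the plain columns for these clones, with mean absolute residuals of 0.0172, 0.141 and 0.0295 natural log units at 5, 10 and 24 h, against 0.347, 0.514 and 0.487 for the scaled ones. For AT3G28220 the residuals at 10 h were -0.0266 from the plain and -0.194 from the scaled columns.

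Of the 10 clones nearest to AT3G28220 by level, 4 held 2 measurements on at least 1 array, FAMT among them. The spots of other clones next to AT3G28220 on the slide, of which 9 or 10 were usable, had median log2 ratios of 0.20, 0.88, 0.62 and 0.49 at 2, 5, 10 and 24 h and reached at most 2.98. The print block of AT3G28220 had a median of -0.23, -0.19, -0.44 and -0.16 over its other clone spots.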
